A study of Homo sapiens with 12 samples.

Results

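The genes described here are 35 genes of NF-kB signalling and of the inflammatory programme that NF-kB switches on in endothelium. They were taken by symbol from a deposited table of 35587 gene symbols, and all 35 were found there. The table covers RNA sequencing of TeloHAEC, an aortic endothelial cell line of human origin that was immortalised with telomerase. Polyadenylated RNA from 140 ng of total RNA was read in 12 libraries, 2 for each of 6 groups. The groups are a line targeted with Cas9 and a guide to TSPAN14 (TKO), a line targeted in the same way at NOTCH1 (NKO) and a control line of wild type genotype (NT), each grown for 24 h on DLL4 and on IgG. The coating solution held either protein at 2.5 mg/mL, and all cells were kept at the same passage. TSPAN14 is a tetraspanin that helps the protease ADAM10 reach the cell surface, NOTCH1 is a Notch receptor that ADAM10 cuts, and DLL4 is a Notch ligand. Each targeted gene was represented by 1 line, so the targeting and other differences between the lines cannot be told apart. The labels call the libraries biological replicates and do not mention separate cultures, so the p-values measure the spread between these libraries.

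NF-kB proteins are dimers of RELA, RELB, NFKB1, NFKB2 and REL that wait in the cytoplasm, bound by inhibitors of the IkB family or held in unprocessed precursors. Signals such as TNF, interleukin-1 or bacterial products activate the IkB kinases, the inhibitor is destroyed, and the dimer enters the nucleus and binds kB sites. In endothelium its known targets are adhesion molecules that catch leukocytes, chemokines that recruit them, and feedback inhibitors that end the response.

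The promoters of the 5 CXC chemokine genes among the 35 are shown because these genes lie in 1 cluster on chromosome 4 and differed in level between the lines in different ways. CXCL1, CXCL2, CXCL3, CXCL6 and CXCL8 all encode neutrophil attractants with the ELR motif. The windows hold 250 bases before and 50 bases from the RefSeq start of each gene, from the RefSeq promoter table on GRCh38.p14, and are written 5′ to 3′ on the strand of the gene. Capitals mark bases that match the kB consensus on either strand.
CXCL8, chr4:73740319-73740618, plus strand: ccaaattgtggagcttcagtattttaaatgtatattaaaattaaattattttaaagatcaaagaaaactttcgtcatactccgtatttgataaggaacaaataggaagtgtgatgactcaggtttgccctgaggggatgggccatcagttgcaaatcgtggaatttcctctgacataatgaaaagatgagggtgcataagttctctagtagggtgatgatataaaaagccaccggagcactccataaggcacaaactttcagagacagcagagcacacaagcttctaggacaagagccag
CXCL6, chr4:73836428-73836727, plus strand: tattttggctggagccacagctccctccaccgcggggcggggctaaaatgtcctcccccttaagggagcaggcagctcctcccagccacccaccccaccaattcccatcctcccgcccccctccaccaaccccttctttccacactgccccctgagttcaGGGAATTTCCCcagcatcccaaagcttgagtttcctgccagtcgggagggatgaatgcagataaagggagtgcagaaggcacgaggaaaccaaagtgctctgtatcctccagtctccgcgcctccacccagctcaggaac
CXCL1, chr4:73869143-73869442, plus strand: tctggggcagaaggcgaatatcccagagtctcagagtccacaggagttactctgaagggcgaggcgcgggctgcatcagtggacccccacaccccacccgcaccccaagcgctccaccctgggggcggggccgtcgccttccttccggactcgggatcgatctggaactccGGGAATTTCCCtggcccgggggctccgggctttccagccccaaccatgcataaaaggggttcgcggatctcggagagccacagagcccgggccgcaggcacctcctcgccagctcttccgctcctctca
CXCL3, chr4:74038640-74038939, minus strand: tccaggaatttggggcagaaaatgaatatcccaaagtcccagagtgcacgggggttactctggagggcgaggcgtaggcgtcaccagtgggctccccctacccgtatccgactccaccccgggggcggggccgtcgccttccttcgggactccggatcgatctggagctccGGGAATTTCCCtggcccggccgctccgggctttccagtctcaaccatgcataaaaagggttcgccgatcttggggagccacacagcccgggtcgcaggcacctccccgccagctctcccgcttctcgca
CXCL2, chr4:74099146-74099445, minus strand: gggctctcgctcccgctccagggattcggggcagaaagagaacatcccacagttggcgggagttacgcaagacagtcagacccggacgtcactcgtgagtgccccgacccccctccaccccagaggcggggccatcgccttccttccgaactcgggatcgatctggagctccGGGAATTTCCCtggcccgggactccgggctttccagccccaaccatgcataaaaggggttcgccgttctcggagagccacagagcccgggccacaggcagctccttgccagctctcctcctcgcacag
The windows of CXCL1, CXCL2, CXCL3 and CXCL6 hold the same capital stretch, in which the match on one strand overlaps the match on the other. It begins at base -79 in CXCL1 and CXCL3, at base -78 in CXCL2 and at base -90 in CXCL6, counted from the gene start. The CXCL8 window holds no full match to the consensus, but its stretch tggaatttcc differs from the consensus at the first base alone. The lack of a full match does not show that a kB site is absent. The same window has a match to the AP-1 motif TGANTCA from base -137 to base -131.

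Of the 35 genes, 27 were found in the RefSeq promoter table, with 43 windows in all. The kB consensus was matched in 20 of these windows (46.5%), which belong to 18 genes, against 3956 of the 35116 windows of all genes (11.3%). The 35 genes are known NF-kB genes, so their share is a description of the list. The AP-1 motif TGANTCA was matched in 4 of the 43 windows (9.3%), against 7.71% of all windows. The letters TGGGAA, the core bound by the Notch partner RBPJ, were matched in 13 of the 43 windows (30.2%), against 24.0% of all windows. All 3 motifs were searched on both strands, and the letters TGGGAA can overlap a kB match. A match says only that the letters are present.

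The levels of the list were graded, from genes over 100 TPM to genes that were close to silent. Levels are in TPM, a measure of transcript abundance that takes transcript length and library size into account. PTX3, a secreted pattern recognition protein, CFLAR, an inhibitor of caspase-8, and CCL2, a monocyte chemokine, had means over 100 TPM across the 12 libraries, at 364, 143 and 112 TPM. A further 12 genes had means between 10 and 100 TPM, 7 between 1 and 10 TPM, and 13 under 1 TPM. The median gene among the 13299 tested had a mean of 14.8 TPM. Genes were tested where at least 2 libraries reached 1 TPM, and 25 of the 35 passed. TPM keep no read number, so the depth behind each value is unknown.

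The 10 genes that were not tested include the classic markers of inflamed endothelium. VCAM1, an adhesion molecule for leukocytes, did not exceed 0.0408 TPM in any library. SELE (E-selectin), which lets leukocytes roll on endothelium, reached at most 0.374 TPM. The chemokines CXCL10 and CX3CL1 reached at most 0.172 and 0.126 TPM, and LIF, TNFRSF9, EBI3 and IER3 stayed below 1 TPM in every library. CCL20 reached 1.19 TPM in 1 NKO library on IgG, and CSF2 reached 1.14 TPM in 1 TKO library on DLL4. CXCL6 and the receptor gene CD40 passed the filter only through TKO libraries, and the receptor gene IL7R only through NT libraries, so these 3 had to differ between lines. Their levels are described below with no test between lines, and counts between lines are given with and without them.

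**Figure D1:**
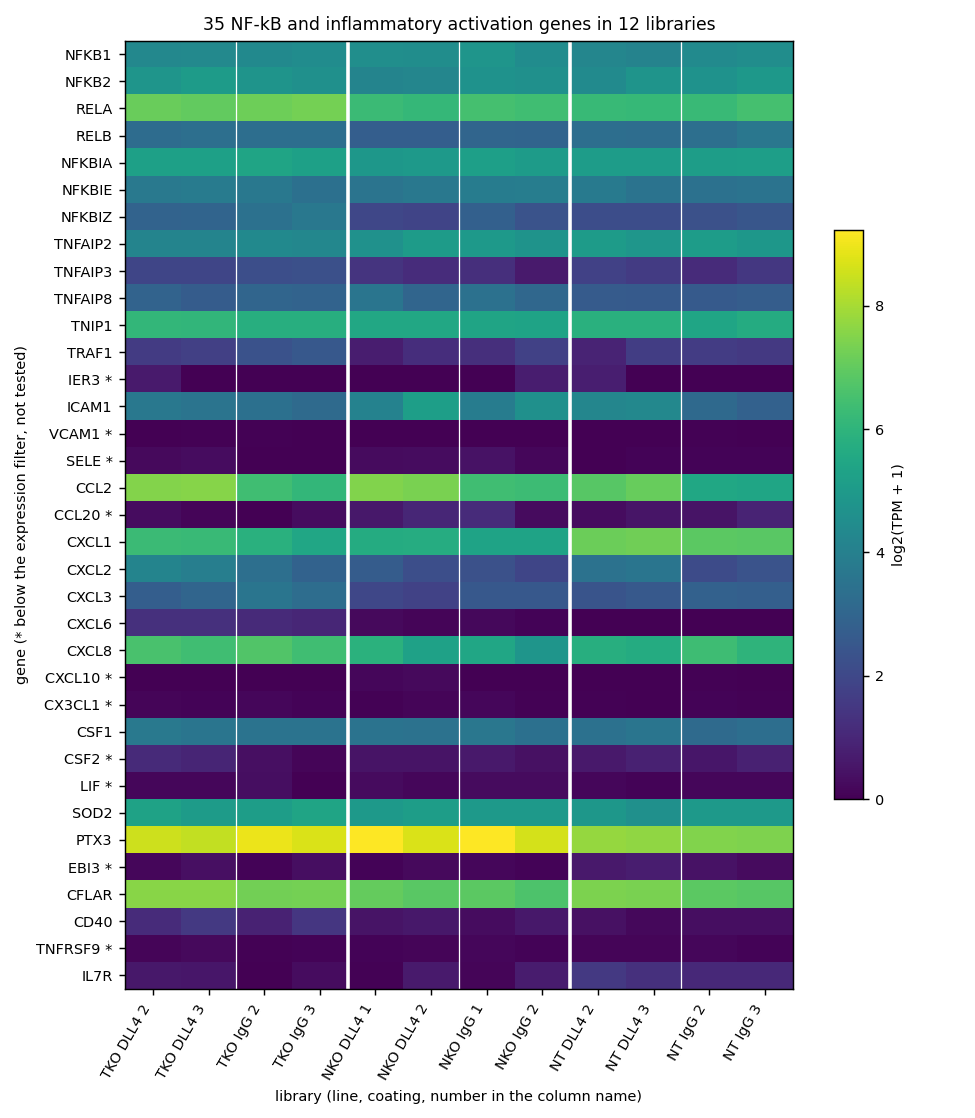
Heat map of log2(TPM + 1), shown by colour, for the 35 genes (rows) in the 12 libraries (columns, grouped by line and coating). PTX3, CFLAR and CCL2 are bright in all columns, and the 10 genes marked with a star stay near 0.

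The libraries of a group agreed closely across genes (r of log2 values between 0.987 and 0.992), and TPM sums were between 974989 and 977130. HES4, a Notch target, had 45.1 and 41.5 TPM on DLL4 against 2.42 and 2.82 TPM on IgG in TKO libraries, 6.28 and 9.19 against 0.706 and 1.32 TPM in NKO libraries, and 110 and 123 against 6.14 and 7.56 TPM in NT libraries. TSPAN14 had 109 to 148 TPM in TKO libraries, against 172 to 218 TPM in NT libraries. NOTCH1 had 16.5 and 19.5 TPM in NKO libraries on DLL4 and 15.6 and 19.2 TPM on IgG, against 24.7 and 31.5 TPM in NT libraries on DLL4 and 17.8 and 19.6 TPM on IgG. A transcript level does not measure the edit itself. Summed TPM over 12 endothelial markers lay between 2450 and 2940 in all libraries. Of 12 leukocyte markers, 10 stayed below 1 TPM in every library, with CD2 listed at 0 in all and PTPRC at 0.744 TPM or less. The sum over these 12 was 55.3 to 68.3 TPM in TKO, 29.4 to 40.9 TPM in NKO and 43.5 to 54.4 TPM in NT libraries, most of it CD68, and CD14 had 2.33 to 9.65 TPM in TKO against 0.461 TPM or less in NT libraries. The part of these markers in the results was not tested. In bulk RNA, fewer cells with a transcript and less of it per cell cannot be told apart.

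CCL2 was the gene of the list that DLL4 raised in all 3 lines. On DLL4 against IgG it had 181 and 185 against 84.0 and 67.3 TPM in TKO libraries, 175 and 163 against 82.9 and 79.5 TPM in NKO libraries, and 113 and 133 against 43.9 and 41.5 TPM in NT libraries. In each line both DLL4 libraries stood above both IgG libraries, and the NT libraries were the lowest on either coating. The rise on the log2(TPM + 1) scale, on which all changes are given here, was 1.27 ± 0.11 in TKO (SE, limma adjusted p = 7.1e-05), 1.05 ± 0.11 in NKO (limma adjusted p = 0.00136) and 1.5 ± 0.11 in NT cells (limma adjusted p = 1.11e-05). CCL2 draws monocytes to inflamed vessels.

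In TKO cells DLL4 raised 3 of the 25 genes and lowered 0 by limma (5 and 3 at an unadjusted p below 0.05), where 4.11% of all tested genes rose, 2.41% fell and 6.51% changed. Over all genes the count of 866 was 307 to 547 without any 1 of the 4 TKO libraries. With the abundant RNA KPNA2P2 left out of the totals, 457 genes rose and 424 fell in TKO cells, in place of 546 and 320. The 3 are CCL2, CXCL2 and CXCL1, and the median over the 25 was -0.03, against 0.01 over all genes. CXCL2 had 16.9 and 14.3 TPM on DLL4 against 9.37 and 6.47 TPM on IgG in TKO cells, a rise of 0.91 ± 0.21 (limma adjusted p = 0.0262). CXCL1 had 77.8 and 74.1 TPM on DLL4 against 56.1 and 42.7 TPM on IgG in TKO cells, a rise of 0.62 ± 0.11 (limma adjusted p = 0.00647). Neither pair of groups overlapped.

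These TKO calls rest on few libraries. Without TKO on DLL4 library 2 the count was 1, since CXCL1 (limma adjusted p = 0.0609) and CXCL2 (0.185) were lost. CXCL2 was also lost without TKO on DLL4 library 3 (0.0879) or TKO on IgG library 3 (0.169). The count was 5 without either NKO library on IgG, as genes near the threshold entered. Those near it included CXCL3 at -0.56 (limma adjusted p = 0.0503), NFKBIZ, a nuclear IkB protein, at -0.61 (0.0544) and CFLAR at 0.32 (0.0611).

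In NKO cells DLL4 raised 1 of the 25 genes, CCL2, and lowered 0 by limma (2 and 5 at an unadjusted p below 0.05), where 0.511% of all tested genes rose, 0.271% fell and 0.782% changed. Over all genes the count of 104 was 41 without NKO on IgG library 1 and 37 without NKO on DLL4 library 2. The median over the 25 was 0.03, against 0.01 over all genes. CXCL2 had 5.41 and 3.64 TPM on DLL4 against 3.84 and 2.84 TPM on IgG in NKO cells, so the groups overlapped. ICAM1, the endothelial ligand of leukocyte integrins, had 15.8 and 34.6 TPM on DLL4 against 13.6 and 24.0 TPM on IgG in NKO cells, and library 2 was the higher on both coatings. The same line had 595 and 418 TPM of PTX3 on DLL4 and 587 and 395 TPM on IgG, with library 1 the higher on both. Without NKO on IgG library 2 a second gene passed, for a count of 2.

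In NT cells DLL4 raised 5 of the 25 tested genes and lowered 0 by limma (at an unadjusted p below 0.05 the numbers are 6 and 1), where 7.68% of all tested genes rose, 8.34% fell and 16.0% changed either way. Over all genes the count of 2130 was 960 to 1213 without any 1 of the 4 NT libraries, and its split of 1021 higher and 1109 lower turned to 651 higher and 403 lower without NT on DLL4 library 3 and to 529 and 431 without NT on IgG library 3. The 5 are CCL2, CXCL2, ICAM1, CFLAR and TNIP1. The median change of the 25 genes was -0.04, against 0.01 over all genes tested. CXCL2 had 10.1 and 10.9 TPM on DLL4 against 3.27 and 4.09 TPM on IgG in NT cells, a rise of 1.31 ± 0.21 (limma adjusted p = 0.00209). ICAM1 had 17.8 and 18.9 TPM on DLL4 against 7.98 and 6.31 TPM on IgG in NT cells. Its groups did not overlap and it rose by 1.26 ± 0.31 (limma adjusted p = 0.0205). The ICAM1 call was lost without any 1 of the 4 NT libraries, with limma adjusted p between 0.0572 and 0.137, and with no filter on low values (limma adjusted p = 0.0935).

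CFLAR, which encodes the apoptosis inhibitor c-FLIP, had 168 and 163 TPM on DLL4 against 118 and 113 TPM on IgG in NT cells. The groups were well apart, and the rise was 0.52 ± 0.09 (limma adjusted p = 0.00323). TNIP1, which binds the ubiquitin editor A20 and dampens NF-kB signalling, had 57.3 and 56.5 TPM on DLL4 against 41.9 and 50.3 TPM on IgG in NT cells, a rise of 0.30. The TNIP1 call (limma adjusted p = 0.0418) was lost without either NT library on DLL4, NT or TKO on IgG library 2, or any 1 of the 4 TKO and NKO libraries on DLL4 (limma adjusted p between 0.0501 and 0.256). Without NT on IgG library 2 the rise was 0.18. The count of genes that changed on DLL4 in NT cells was 3 without NT on IgG library 2, without either NT library on DLL4, or with no filter.

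**Figure D2:**
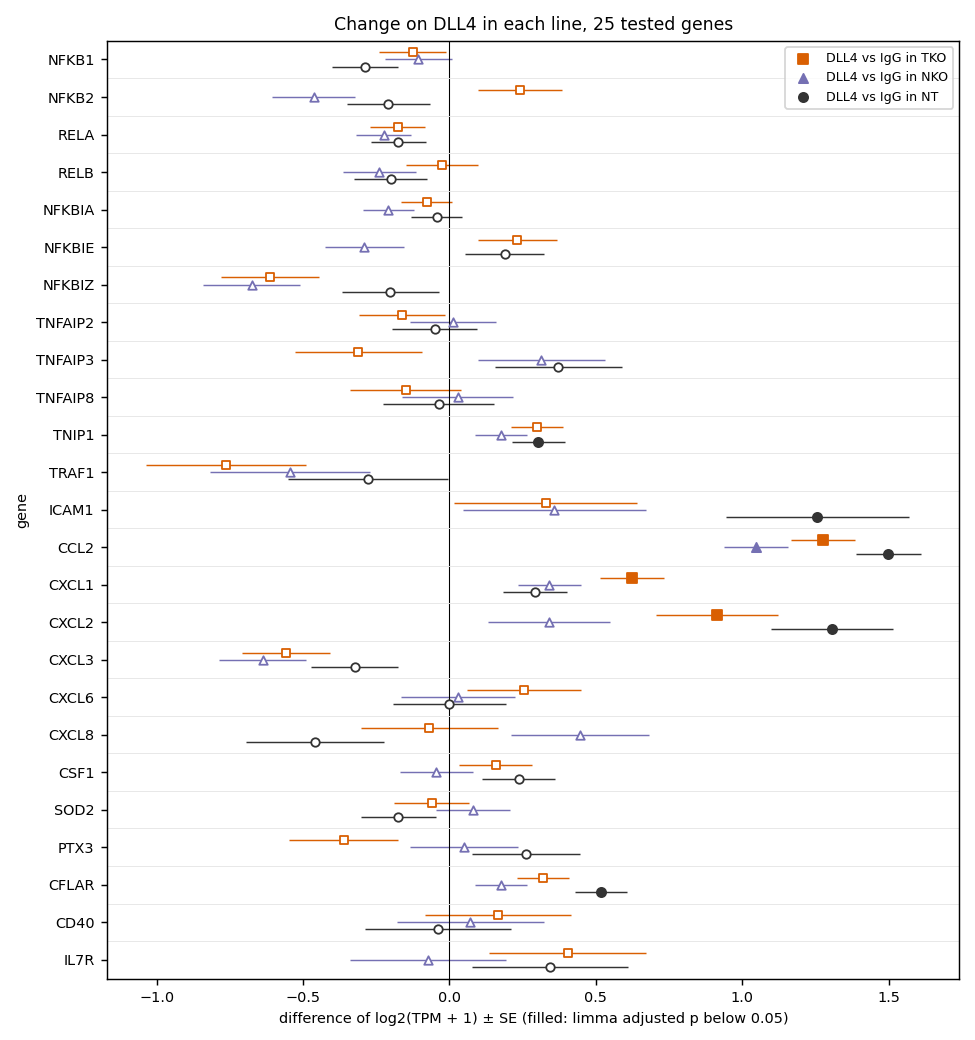
Difference of log2(TPM + 1) between DLL4 and IgG with its SE for the 25 tested genes (rows) in TKO, NKO and NT cells, filled where the limma adjusted p is below 0.05. CCL2 is filled in all 3 lines, and ICAM1 is filled in NT cells, where it rose by 1.26.

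The response to DLL4 was also compared between lines by the difference of the changes. Limma called 0 of the 25 genes for TKO minus NT, with 3 at an unadjusted p below 0.05, where 0.196% of all tested genes were called higher, 0.331% lower and 0.526% either way. It called 0 for NKO minus NT, with 5 at an unadjusted p below 0.05, where 0.316% of all tested genes were called higher, 0.571% lower and 0.887% either way. The medians over the 25 were -0.03 for TKO minus NT and -0.17 for NKO minus NT, against 0.01 and 0.00 over all genes, and both comparisons share the NT libraries. The largest NKO minus NT difference was that of CXCL2, at -0.97 with a 95% interval of -1.62 to -0.31 (limma adjusted p = 0.191). For ICAM1 the TKO minus NT difference was -0.93 with an interval of -1.90 to 0.05 (limma adjusted p = 0.345). The interval holds 0 and also a difference as large as the NT rise itself, so the call in NT cells does not show that the lines differed.

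With the line as the question, CXCL1 stood lower in both targeted lines on both coatings. On DLL4 it had 77.8 and 74.1 TPM in TKO, 50.1 and 51.5 TPM in NKO and 140 and 147 TPM in NT libraries. The IgG libraries had 56.1 and 42.7 TPM in TKO, 40.1 and 39.7 TPM in NKO and 118 and 116 TPM in NT libraries. All 4 NT libraries were above all 8 libraries of the targeted lines. The difference from NT was -0.91 ± 0.11 in TKO (limma adjusted p = 9.95e-05) and -1.48 ± 0.11 in NKO cells (limma adjusted p = 7.4e-06) on DLL4. On IgG it was -1.24 ± 0.11 in TKO (limma adjusted p = 1.32e-05) and -1.53 ± 0.11 in NKO cells (limma adjusted p = 7.83e-06). The comparisons of TKO and NKO with NT share the NT libraries.

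CXCL6 was listed at 0 TPM in all 4 NT libraries and had 1.44 and 1.44 TPM in TKO libraries on DLL4 and 1.14 and 0.965 TPM on IgG. In NKO libraries it had 0.171 and 0.0953 TPM on DLL4 and 0.143 and 0.0764 TPM on IgG. The TKO libraries stood above all others. No fold is given against a group listed at 0, and no test between lines, because the gene passed the filter only through TKO libraries.

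CXCL2 and CXCL3 separated the targeted lines from each other. CXCL2 had 16.9 and 14.3 TPM in TKO and 5.41 and 3.64 TPM in NKO libraries, against 10.1 and 10.9 TPM in NT libraries, on DLL4. Against NT on DLL4 it was lower in NKO by -1.08 ± 0.21 (limma adjusted p = 0.00476), and the TKO difference of 0.52 was not called (limma adjusted p = 0.0931). Its levels on IgG were 9.37 and 6.47 TPM in TKO and 3.84 and 2.84 TPM in NKO libraries, against 3.27 and 4.09 TPM in NT libraries. The TKO libraries stood above NT by 0.92 ± 0.21 on IgG (limma adjusted p = 0.00751), a call that was lost without NT on IgG library 2 (limma adjusted p = 0.0629) or TKO on IgG library 2 (0.0563). CXCL3 followed a similar order, with 5.77 and 7.01 TPM in TKO, 2.87 and 2.56 TPM in NKO and 4.25 and 5.0 TPM in NT libraries on DLL4. CXCL3 on IgG had 10.9 and 8.90 TPM in TKO, 4.81 and 4.74 TPM in NKO and 6.20 and 5.86 TPM in NT libraries. CXCL3 was higher in TKO on IgG by 0.63, a call lost without NT on IgG library 3 (limma adjusted p = 0.0616) or TKO on IgG library 2 (0.0647). It was lower in NKO on DLL4 by -0.60 ± 0.15 (limma adjusted p = 0.0164), a call lost without NT on DLL4 library 3 (0.122), NKO on DLL4 library 1 (0.0531) or NKO on DLL4 library 2 (0.0934).

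CXCL8 (interleukin-8) had 94.0 and 82.5 TPM in TKO, 57.8 and 37.7 TPM in NKO and 53.4 and 49.7 TPM in NT libraries on DLL4. On IgG it had 103 and 82.6 TPM in TKO, 43.1 and 26.8 TPM in NKO and 81.2 and 62.2 TPM in NT libraries. On DLL4 the TKO libraries stood alone at the top, and on IgG the NKO libraries stood alone at the bottom. Against NT it was higher in TKO on DLL4 by 0.76 ± 0.24 (limma adjusted p = 0.0338) and lower in NKO on IgG by -1.04 ± 0.24 (limma adjusted p = 0.0171). The TKO call was lost without any 1 of the 4 libraries compared (limma adjusted p between 0.0748 and 0.17). The NKO call was lost without NT on IgG library 2 (limma adjusted p = 0.126) or NKO on IgG library 2 (0.0803), and neither call held with no filter (0.13 for the TKO call, 0.088 for the NKO call).

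The 5 genes lie within 358.8 kb of chromosome 4 on GRCh38, in the order CXCL8, CXCL6, CXCL1, CXCL3 and CXCL2, with starts 96.0, 128.9, 298.3 and 358.8 kb from that of CXCL8. They are the 5 tested genes among 9 protein-coding genes in that span. Within 1000000 bases of CXCL8, 7 other protein-coding genes were tested, among them the rest of the 5. In TKO 2 of the 7 were higher and 1 lower than in NT on DLL4 (median 0.39). On IgG 4 were higher and 1 lower (median 0.57). In NKO 0 were higher and 3 lower on DLL4 (median 0.02), and 0 and 1 on IgG (median 0.04). CXCL6, whose calls are no test, is among the 7. The part of the region was not tested. The transcripts of CXCL2 share 22.4% of their 31-base words with transcripts of other genes, mainly CXCL3 and CXCL1. The share is 14.4% for CXCL1 and 9.54% for CXCL3, so the division of reads among these 3 genes is uncertain, while CXCL8 shares none. Between TKO and NKO, the 4 genes other than CXCL6 were all called higher in TKO on DLL4 and 3 of the 4 on IgG, where CXCL1 at 0.29 missed the threshold (limma adjusted p = 0.0877).

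**Figure D3:**
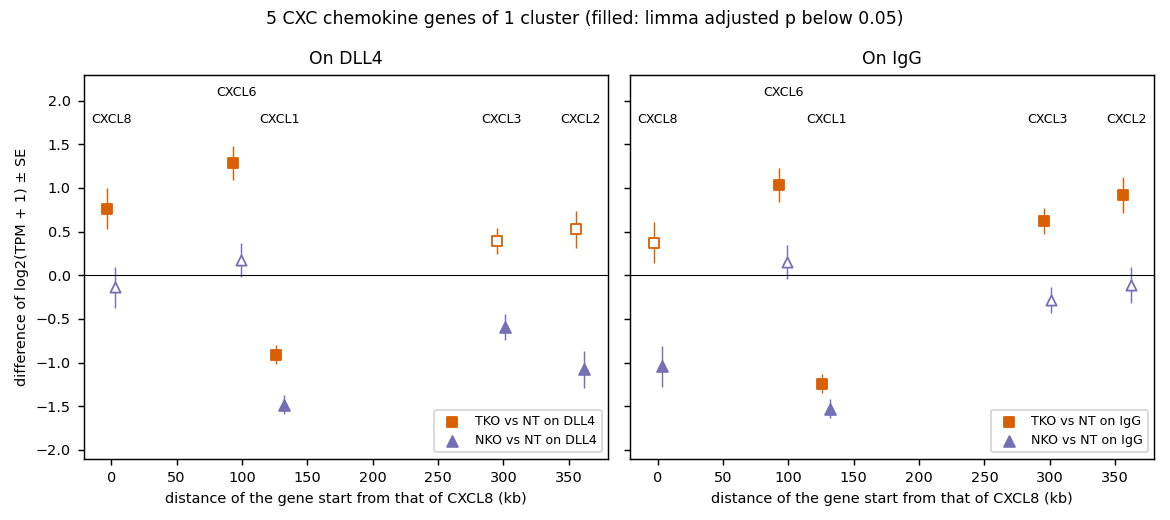
Difference of log2(TPM + 1) from NT with its SE for the 5 CXC chemokine genes, by distance of the gene start from that of CXCL8 in kb, on DLL4 (left) and IgG (right), filled where the limma adjusted p is below 0.05. CXCL1 lies below 0 for both targeted lines, and the other 4 lie above 0 for TKO. CXCL6 is listed at 0 in NT libraries, so the size of its difference depends on the pseudocount of 1. It passed the filter only through TKO libraries, so its filled points are no test.

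PTX3, the most abundant gene of the list, stood higher in both targeted lines. On DLL4 it had 365 and 333 TPM in TKO, 595 and 418 TPM in NKO and 214 and 205 TPM in NT libraries. PTX3 on IgG had 491 and 410 TPM in TKO, 587 and 395 TPM in NKO and 177 and 172 TPM in NT libraries. The 8 libraries of the targeted lines were all above the 4 NT libraries. The difference from NT was 0.73 ± 0.19 in TKO (limma adjusted p = 0.0127) and 1.25 ± 0.19 in NKO cells (limma adjusted p = 0.000919) on DLL4. On IgG it was 1.35 ± 0.19 in TKO (limma adjusted p = 0.000323) and 1.46 ± 0.19 in NKO cells (limma adjusted p = 0.000549). The TKO call on DLL4 was lost without NT on DLL4 library 3 (limma adjusted p = 0.0712) or TKO on DLL4 library 2 (0.0828). Of 9 tested protein-coding genes within 1000000 bases of PTX3, 5 were higher and 1 lower in NKO than in NT on DLL4 (median 0.45), and 1 was higher and 1 lower on IgG (median 0.17). In TKO 2 of the 9 were higher and 3 lower on DLL4 (median 0.16), and 4 were higher and 2 lower on IgG (median 0.18). The PTX3 difference stood above those of all 9 except in TKO on DLL4, where it ranked 2 from the top. The part of these neighbours in the PTX3 result was not tested.

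CCL2 was also higher in both targeted lines than in NT. Its values above give differences of 0.58 ± 0.11 in TKO and 0.46 ± 0.11 in NKO on DLL4, and of 0.80 ± 0.11 in TKO and 0.91 ± 0.11 in NKO cells on IgG. All 4 were called by limma (adjusted p = 0.00239, 0.0135, 0.000323 and 0.000387, in that order). The NKO call on DLL4 was lost without NT on DLL4 library 2 (limma adjusted p = 0.11) or NKO on DLL4 library 1 (0.0915). Rescaling by the median of ratios also ended it (0.0612). The 6 tested protein-coding genes within 1000000 bases of CCL2 had median differences between -0.03 and 0.13 in these comparisons.

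ICAM1 was higher in NKO cells on IgG, with 13.6 and 24.0 TPM against 7.98 and 6.31 TPM in NT libraries, by 1.24 ± 0.31 (limma adjusted p = 0.0286). The groups did not overlap, and NKO library 2 was the higher of its pair. The call was lost without NT on IgG library 2 (limma adjusted p = 0.0785), NT on IgG library 3 (0.179) or NKO on IgG library 2 (0.122), and under quantile normalization (0.0647). On DLL4 ICAM1 had 11.8 and 10.8 TPM in TKO and 15.8 and 34.6 TPM in NKO libraries, against 17.8 and 18.9 TPM in NT libraries, and neither difference from NT was called. The TKO difference of -0.66 on DLL4 was called when the 4 libraries compared were fitted alone (limma adjusted p = 0.00364). The other adhesion genes, VCAM1 and SELE, were near 0 in all lines.

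**Figure D4:**
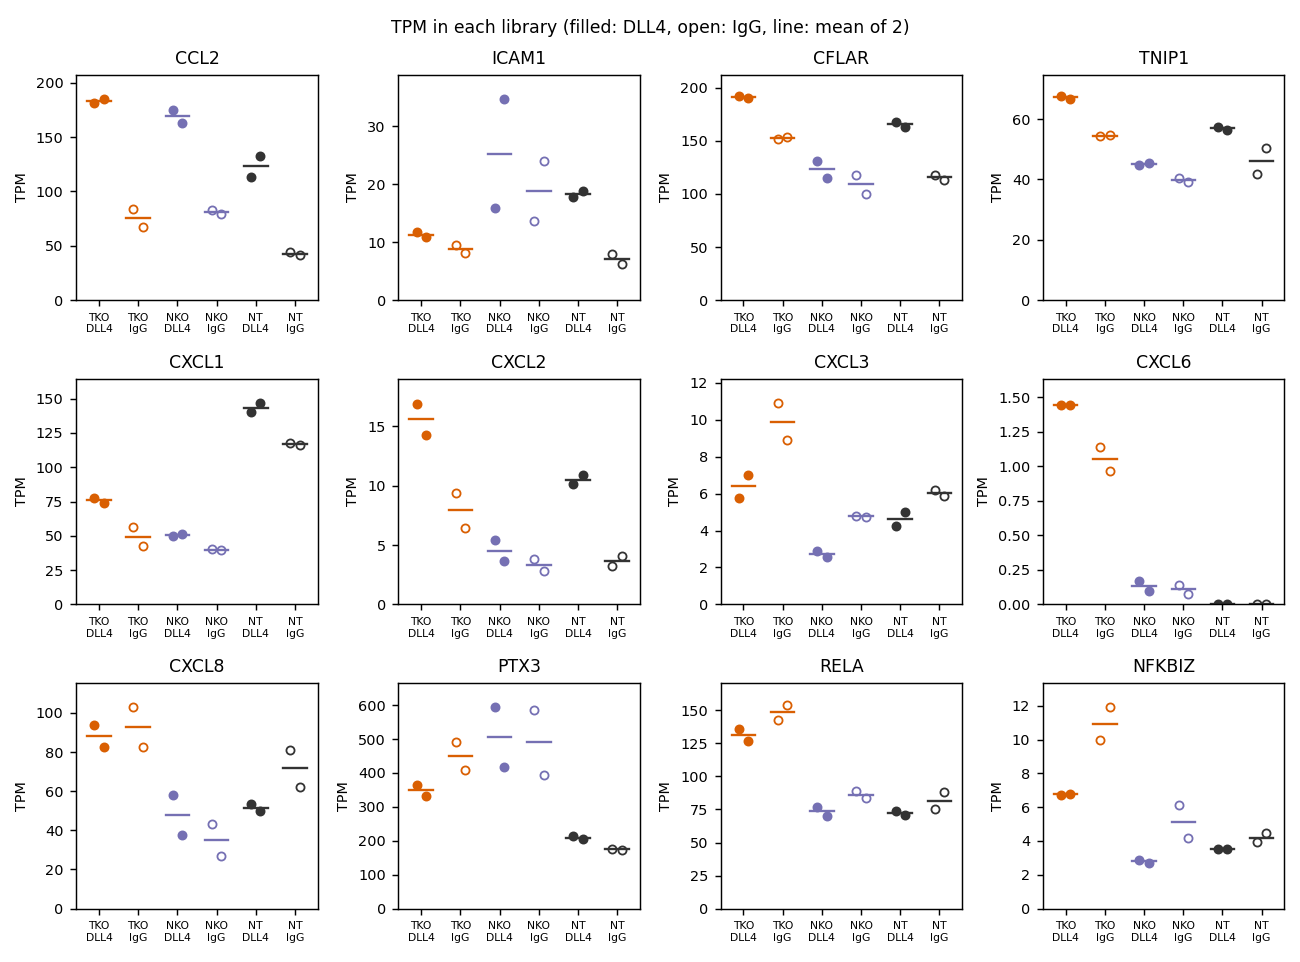
TPM in each library of 12 genes for the 6 groups, with filled points for DLL4, open points for IgG and a line at the mean of 2 libraries. CXCL1 is highest in NT libraries, RELA is highest in TKO libraries, and CCL2 is higher on DLL4 in every line.

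Among the kB subunits, RELA was called against NT in the TKO line and not in the NKO line. RELA, the main transactivating subunit, had 136 and 127 TPM in TKO, 77.0 and 70.4 TPM in NKO and 73.6 and 70.6 TPM in NT libraries on DLL4. On IgG it had 143 and 154 TPM in TKO, 89.0 and 83.4 TPM in NKO and 75.0 and 88.6 TPM in NT libraries. All 4 TKO libraries stood above the other 8. The TKO difference from NT was 0.85 ± 0.09 on DLL4 (limma adjusted p = 5.49e-05) and 0.86 ± 0.09 on IgG (limma adjusted p = 6.92e-05), and the NKO differences of 0.03 and 0.08 were not called.

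RELA lies at chr11:65653596-65663094 on the minus strand (GRCh38), and its neighbours moved with it in TKO cells. Of 68 tested protein-coding genes within 1000000 bases on either side, 56 were higher and 1 was lower in TKO than in NT on DLL4, with a median difference of 0.70. On IgG 51 were higher and 1 was lower, with a median of 0.53. In NKO cells 11 of the 68 were higher and 9 lower than in NT on DLL4, and 3 were higher and 2 lower on IgG. Among RELA and these neighbours, RELA ranked 21 from the top in TKO on DLL4 and 9 on IgG. The part of the region in the RELA result was not tested.

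The other subunits changed less. NFKB1, whose product is processed to p50, had 22.5 and 22.2 TPM in NKO against 17.8 and 16.5 TPM in NT libraries on DLL4 and was called higher in NKO there by 0.37. That call was lost without any 1 of the NT libraries or of the TKO and NKO libraries on DLL4, with limma adjusted p between 0.0577 and 0.214. RELB, a subunit of the noncanonical pathway, had 5.79 and 5.68 TPM in NKO against 9.01 and 8.71 TPM in NT libraries on DLL4, and 7.11 and 6.81 TPM in NKO against 9.25 and 11.5 TPM in NT libraries on IgG. Both NKO pairs lay below NT, and RELB was called lower in NKO by -0.55 ± 0.12 on DLL4 (limma adjusted p = 0.0101) and by -0.51 ± 0.12 on IgG (limma adjusted p = 0.0248). Without any 1 of the 4 libraries compared on DLL4 the limma adjusted p was between 0.0501 and 0.0598, just over the threshold. On IgG the call was lost without NT library 3 (0.202), NKO library 1 (0.0694) or NKO library 2 (0.0643). NFKB2, the precursor of p52, was called in neither line against NT.

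Of the IkB proteins and feedback inhibitors, NFKBIZ was higher in TKO cells on both coatings. It encodes a nuclear IkB protein that takes part in the induction of secondary response genes such as IL6. NFKBIZ had 6.72 and 6.80 TPM in TKO, 2.88 and 2.70 TPM in NKO and 3.52 and 3.5 TPM in NT libraries on DLL4. On IgG it had 9.95 and 11.9 TPM in TKO, 6.10 and 4.15 TPM in NKO and 3.91 and 4.48 TPM in NT libraries. The TKO libraries were above all others on each coating, with differences from NT of 0.78 ± 0.17 on DLL4 (limma adjusted p = 0.00474) and 1.19 ± 0.17 on IgG (limma adjusted p = 0.000366).

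TNFAIP3, which encodes the ubiquitin editor A20, had 3.65 and 3.79 TPM in TKO and 1.38 and 0.597 TPM in NKO libraries, against 1.21 and 1.81 TPM in NT libraries, on IgG. It was called higher in TKO there by 0.92 ± 0.22 (limma adjusted p = 0.0089), a call lost without NT on IgG library 2 (limma adjusted p = 0.0776). On DLL4 the TKO difference from NT was 0.24 and not called. NFKBIA, the canonical IkB protein and an early NF-kB target, lay between 28.4 and 40.6 TPM in all 12 libraries and was not called against NT in either line, and NFKBIE lay between 9.67 and 14.1 TPM with no such call. TNIP1 was called lower in NKO on DLL4 by -0.33, with 44.8 and 45.6 TPM against 57.3 and 56.5 TPM in NT libraries. The TNIP1 call was lost without any 1 of these 4 libraries (limma adjusted p between 0.0855 and 0.119).

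Among the TNF-induced and signalling genes, TNFAIP2 was lower in TKO cells. It encodes a protein of membrane nanotubes that TNF induces in endothelium, and had 17.0 and 16.8 TPM in TKO, 24.4 and 32.6 TPM in NKO and 32 and 27.9 TPM in NT libraries on DLL4. On IgG it had 19.6 and 18.4 TPM in TKO, 30.7 and 25.5 TPM in NKO and 33.5 and 28.6 TPM in NT libraries. All 4 TKO libraries lay below the other 8. The TKO difference from NT was -0.79 ± 0.15 on DLL4 (limma adjusted p = 0.00204) and -0.68 on IgG, where the call was lost without NT on IgG library 2 (limma adjusted p = 0.053). TNFAIP8, an apoptosis regulator, had 10.9 and 7.12 TPM in NKO against 5.31 and 5.12 TPM in NT libraries on DLL4, higher by 0.66 ± 0.19 (limma adjusted p = 0.0309). That call was lost without NKO library 1, where the difference was 0.39 (limma adjusted p = 0.248), and without NT library 2 (0.0976) or NT library 3 (0.133) on DLL4.

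CFLAR was higher in TKO on IgG by 0.41, with 152 and 154 TPM against 118 and 113 TPM in NT libraries. It was lower in NKO on DLL4 by -0.43, with 131 and 115 TPM against 168 and 163 TPM in NT libraries, a call lost without NKO on DLL4 library 2 (limma adjusted p = 0.0587). TRAF1, a signalling adaptor of TNF receptors, had 3.95 and 4.83 TPM in TKO against 2.09 and 1.89 TPM in NT libraries on IgG. It was called higher there by 0.85, and the call was lost without any 1 of the TKO libraries or of the NT libraries on IgG (limma adjusted p between 0.0548 and 0.186). SOD2, a mitochondrial superoxide dismutase, had 38.5 and 32.7 TPM in TKO against 28.7 and 23.8 TPM in NT libraries on DLL4 and was called higher by 0.43. The SOD2 call was lost without TKO library 2 (limma adjusted p = 0.226) or NT library 3 (0.216) on DLL4. CSF1, a growth factor of macrophages, lay between 8.17 and 12.4 TPM in all libraries and was called in no comparison.

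The receptors were low throughout. CD40, a TNF receptor family member, had 1.17 and 1.89 TPM in TKO, 0.384 and 0.495 TPM in NKO and 0.317 and 0.140 TPM in NT libraries on DLL4. Its levels on IgG were 0.821 and 1.74 TPM in TKO, 0.248 and 0.50 TPM in NKO and 0.259 and 0.258 TPM in NT libraries. The TKO libraries were above all others, with a mean difference from NT of 1.03 on DLL4 and 0.83 on IgG. CD40 passed the filter only through TKO libraries, so no test of these differences is given. IL7R, the receptor of interleukin-7, had 0.497 and 0.466 TPM in TKO, 0.0263 and 0.576 TPM in NKO and 1.86 and 1.44 TPM in NT libraries on DLL4. On IgG it had 0.00726 and 0.246 TPM in TKO, 0.105 and 0.620 TPM in NKO and 1.09 and 1.07 TPM in NT libraries.

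The NT libraries had the highest IL7R levels on both coatings, and NKO library 2 stood above NKO library 1 on both. On DLL4 the mean difference from NT was -0.83 in TKO and -1.05 in NKO cells, and with a pseudocount of 0.1 it was -1.58 in TKO and -2.57 in NKO cells. IL7R passed the filter only through NT libraries, so no test of these differences is given.

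Counted together without CXCL6, CD40 and IL7R, 6 of 22 genes were higher and 2 lower in TKO than in NT on DLL4, where 15.8% of all genes that reached 1 TPM in more than 1 line were higher, 10% lower and 25.8% different. On IgG 9 of the 22 were higher and 2 lower, where 14.9% of such genes were higher, 12.2% lower and 27.1% different. The median difference of the 22 was 0.24 on DLL4 and 0.31 on IgG, against 0.03 and 0.04 over all genes. The genes were chosen with earlier results of these data known, so the shares given for them describe the list. With the 3 genes included, whose calls are no test, 8 of 25 were higher and 3 lower on DLL4. Of all tested genes 16.1% were higher, 10.5% lower and 26.6% different. On IgG 11 of the 25 were higher and 3 lower, where 15.2% of all tested genes were higher, 12.4% lower and 27.6% different. Quantile normalization turned this split over all genes on IgG, with 1901 higher and 2090 lower in place of 2019 and 1647. Of the 25, the count on DLL4 was 15 with the compared libraries fitted alone and 7 in all without TKO on DLL4 library 2 or NT on DLL4 library 3, and the count on IgG was 8 without NT on IgG library 2.

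In NKO cells 4 of the 22 were higher and 6 lower than in NT on DLL4, where 11.6% of genes that reached 1 TPM in more than 1 line were higher, 8.93% lower and 20.5% different. With the 3 genes included, whose calls are no test, 4 of 25 were higher and 7 lower. Of all tested genes 11.4% were higher, 9.31% lower and 20.7% different. Rescaling by the median of ratios turned this split over all genes, with 1279 higher and 1568 lower in place of 1520 higher and 1238 lower. On IgG 3 were higher and 3 lower of the 22 and of the 25, where 4.95% of genes in more than 1 line were higher, 5.45% lower and 10.4% different, and 4.92%, 5.74% and 10.7% of all tested genes. With KPNA2P2 left out the split over all genes on IgG turned to 786 higher and 742 lower, in place of 654 and 764. The median of the 22 was -0.17 on DLL4 and -0.04 on IgG, against 0.06 and 0.06 over all genes. Of the 25, the count on DLL4 was between 4 and 6 in all without any 1 of the 4 libraries compared, 4 without NKO library 1, 5 without NT library 3 and 6 without NKO library 2 or NT library 2.

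**Figure D5:**
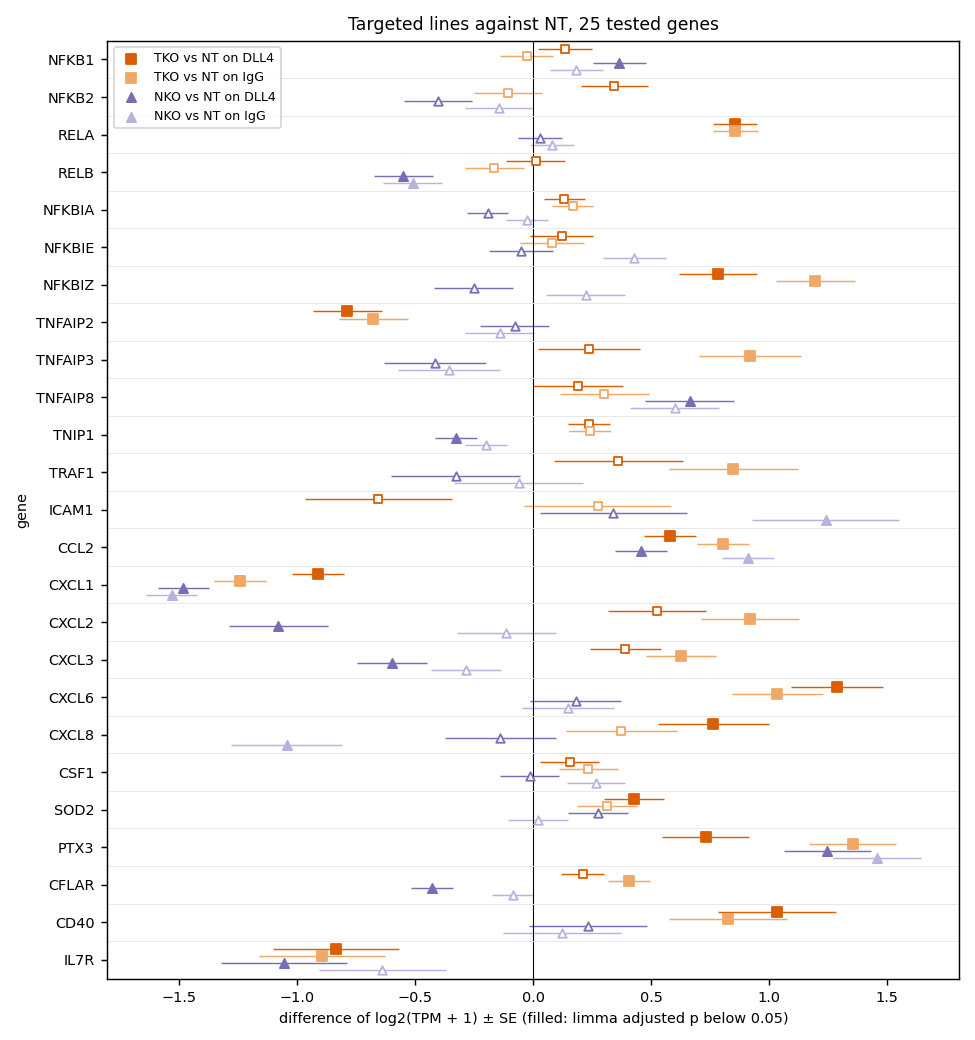
Difference of log2(TPM + 1) from NT with its SE for the 25 tested genes (rows) in TKO and NKO cells on DLL4 and IgG, filled where the limma adjusted p is below 0.05. CXCL1 lies near -1 or below in all 4 comparisons, PTX3 and CCL2 lie to the right in all 4, and RELA lies to the right in TKO alone. CXCL6 and CD40 entered only through TKO libraries and IL7R only through NT libraries, so their filled points are no test.

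Set against each other, the targeted lines differed in 13 of the 22 genes on DLL4, with 11 higher and 2 lower in TKO than in NKO, where 12.6% of genes that reached 1 TPM in more than 1 line were higher, 10% lower and 22.6% different. On IgG 9 of the 22 were higher and 1 lower, where 10.6% of such genes were higher, 8.85% lower and 19.4% different. The median of the 22 was 0.56 on DLL4 and 0.29 on IgG, against -0.02 and -0.03 over all genes. With CXCL6, CD40 and IL7R included, whose calls are no test, 13 of 25 were higher and 2 lower on DLL4. Of all tested genes 12.9% were higher, 9.91% lower and 22.9% different. On IgG 10 of the 25 were higher and 1 lower, where 10.9% of all tested genes were higher, 8.75% lower and 19.6% different. Quantile normalization turned the split over all genes on DLL4, with 1780 higher and 1859 lower in place of 1721 and 1318. By role on DLL4, the 4 ELR CXC chemokines other than CXCL6, 3 of 4 kB subunits (RELA, RELB and NFKB2) and 3 of 5 inhibitors (NFKBIA, NFKBIZ and TNIP1) were higher in TKO. ICAM1 and TNFAIP2 were the 2 genes lower in TKO. Of the 68 tested neighbours of RELA, 58 were higher and 1 lower in TKO than in NKO on DLL4 (median 0.65). On IgG 51 of them were higher and 0 lower (median 0.50), and the part of the region was not tested. CXCL2 differed by 1.60 ± 0.21 on DLL4 (limma adjusted p = 0.000314), with 16.9 and 14.3 TPM in TKO against 5.41 and 3.64 TPM in NKO libraries. On IgG CXCL8 differed most, by 1.42 ± 0.24 (limma adjusted p = 0.00184), with 103 and 82.6 TPM in TKO against 43.1 and 26.8 TPM in NKO libraries.

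NFKB2 had 27.0 and 32.6 TPM in TKO against 16.9 and 17.7 TPM in NKO libraries on DLL4, a difference of 0.75. TNFAIP3 on IgG differed by 1.28 ± 0.22 (limma adjusted p = 0.00204). ICAM1 on DLL4 was lower in TKO by -0.99 ± 0.31 (limma adjusted p = 0.0419), a call lost without any 1 of the NT libraries, either TKO library on DLL4 or NKO on DLL4 library 2, with limma adjusted p between 0.0557 and 0.296. Without NKO on DLL4 library 2 the ICAM1 difference was -0.45. Calls lost without a library on DLL4 also include CXCL8 (without TKO library 2 or 3 or NKO library 2, limma adjusted p between 0.0539 and 0.14), NFKBIA (without any 1 of the 4 compared, 0.0633 to 0.127) and RELB (without TKO library 3, 0.0706). On IgG they include TRAF1 (without any 1 of the TKO libraries, either NT library on IgG or NKO library 1, 0.0552 to 0.208) and TNFAIP2 (without TKO library 2 or 3 or NKO library 1, 0.0616 to 0.147).

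Genes that act upstream in NF-kB signalling and are not among the 35 were also counted, 37 of them tested. On DLL4 3 rose and 1 fell in TKO cells (8.11% and 2.7%, against 4.11% and 2.41% of all tested genes), and 4 rose and 3 fell in NT cells (10.8% and 8.11%, against 7.68% and 8.34%). In NKO cells 0 changed by limma, with 5 at an unadjusted p below 0.05, where 0.782% of all tested genes changed. TNFRSF1A, the main TNF receptor, rose by 0.33 ± 0.06 in TKO (limma adjusted p = 0.0128) and by 0.34 ± 0.06 in NT cells (limma adjusted p = 0.00593). IKBKB, an IkB kinase, fell by 0.61 in TKO and by 0.69 in NT cells. Of the upstream genes, 35 reached 1 TPM in more than 1 line and were counted against NT. In TKO 4 of these upstream genes were higher and 5 lower on DLL4 (11.4% and 14.3%, against 15.8% and 10% of all such genes). On IgG 4 were higher and 7 lower in TKO (11.4% and 20%, against 14.9% and 12.2%). In NKO 4 were higher and 2 lower on DLL4 (11.4% and 5.71%, against 11.6% and 8.93%), and 2 were higher and 1 lower on IgG (5.71% and 2.86%, against 4.95% and 5.45%). The higher shares in NKO are near those of all genes.

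Single upstream genes differed strongly between the lines. BIRC2, a ubiquitin ligase of the TNF receptor complex, had 20.8 to 31.9 TPM in the 8 libraries of the targeted lines, against 12 to 14.4 TPM in the 4 NT libraries. It was called higher in all 4 comparisons. Neighbours on the chromosome were not counted for BIRC2 or the other upstream genes, so the part of their regions was not tested. TLR4, the receptor of bacterial endotoxin, had 4.00 and 3.82 TPM in TKO libraries on DLL4 against 19.3 and 16.0 TPM in NT libraries, a difference of -1.92 ± 0.16 (limma adjusted p = 7.24e-06). IKBKG, the regulatory subunit of the IkB kinase, had 42.7 to 50.1 TPM in TKO and 94.0 to 105 TPM in NT libraries, and its near-identical pseudogene makes its level uncertain. TNFRSF1B, the second TNF receptor, had 5.41 to 7.36 TPM in NKO libraries against 0.201 to 0.746 TPM in NT libraries. The TNFRSF1B difference from NT was 2.22 ± 0.19 on DLL4 (limma adjusted p = 2.37e-05) and 2.74 ± 0.19 on IgG (limma adjusted p = 7.63e-06).

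Other known NF-kB target genes, 42 in the list and 25 tested, changed on DLL4 in both directions. In TKO cells 3 rose and 5 fell (12% and 20%, against 4.11% and 2.41% of all tested genes), in NKO cells 1 rose and 3 fell (4% and 12%, against 0.511% and 0.271%), and in NT cells 4 rose and 5 fell (16% and 20%, against 7.68% and 8.34%). IL1B, the cytokine interleukin-1 beta, had 7.61 and 4.90 TPM on DLL4 against 0.287 and 0.0801 TPM on IgG in TKO libraries, 6.16 and 4.97 against 1.29 and 0.604 TPM in NKO libraries, and 21.7 and 24.3 against 3.49 and 4.11 TPM in NT libraries. IL1B rose by 2.60 ± 0.23 in TKO (limma adjusted p = 7.4e-05), by 1.77 ± 0.23 in NKO (0.00399) and by 2.32 ± 0.23 in NT cells (8.43e-05). BCL2A1, a survival factor of the BCL2 family, fell by 2.01 in TKO, by 1.71 in NKO and by 1.78 in NT cells.

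Of these target genes, 21 reached 1 TPM in more than 1 line and were counted against NT, in comparisons that share the NT libraries. In TKO 4 were higher and 11 lower on DLL4 (19% and 52.4%, against 15.8% and 10% of all such genes), and 4 higher and 9 lower on IgG (19% and 42.9%, against 14.9% and 12.2%), with median differences of -0.44 and -0.38. In NKO 3 were higher and 11 lower on DLL4 (14.3% and 52.4%, against 11.6% and 8.93%), and 2 higher and 9 lower on IgG (9.52% and 42.9%, against 4.95% and 5.45%), with medians of -0.40 and -0.42. IL32, a proinflammatory cytokine, had 85.8 to 94.2 TPM in TKO and 160 to 193 TPM in NKO libraries, against 594 to 679 TPM in NT libraries. PLAU, the urokinase protease, had 91.5 to 118 TPM in TKO and 76.1 to 90.7 TPM in NKO libraries, against 214 to 347 TPM in NT libraries. BCL2A1 stood higher in both targeted lines than in NT. On DLL4 it had 9.98 and 8.46 TPM in TKO, 4.46 and 3.09 TPM in NKO and 0.62 and 0.64 TPM in NT libraries. On IgG it had 46.1 and 34.8 TPM in TKO, 14.4 and 14.5 TPM in NKO and 4.48 and 4.68 TPM in NT libraries. G0S2, a regulator of lipolysis, passed the filter only through NKO libraries. It had 15.7 to 44.2 TPM in NKO libraries against 0.0773 TPM or less in NT libraries.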

How the data were processed

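The authors deposited 1 table of TPM per gene symbol for 12 libraries, and per the submitters' processing notes kallisto, edgeR and the build hg38 were used. The sources used here give neither versions nor the annotation. TPM hold no read numbers, so depth is unknown. Precision comes from the spread between the 2 libraries of a group, pooled for each gene over all groups and moderated by limma. An SE is therefore not the spread of the groups compared alone. Columns were assigned to groups by their names. Libraries carry the column numbers (2 and 3 for TKO and NT, 1 and 2 for NKO), while the labels number 1 and 2 in every group.

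Genes with at least 1 TPM in at least 2 libraries (13299) entered 1 fit of log2(TPM + 1) over all 12 libraries, by limma 3.58.1 (R 4.3.3) with group means and a variance trend (6 residual degrees of freedom, 10.8 after moderation). P-values are two-sided and Benjamini-Hochberg adjusted over all tested genes, with a threshold of 0.05. A permutation test of 2 against 2 libraries cannot give a two-sided p below 0.333. Changes understate those of genes at low levels. The fit was tested on simulated data. Promoter windows came from the RefSeq table on GRCh38.p14, and positions, neighbours and shared 31-base words from GENCODE 29. Figures used matplotlib 3.10.9.

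The 35 genes and all lists were chosen with earlier results of these data known. Every gene of the 35 could be named, with full statistics where it was called and among the 8 largest changes, and of every other list up to 4 called genes with the smallest p. The lists of interferon response, AP-1 and immediate early genes, endothelial quiescence and markers of 4 cell classes are described in the closing section. Alternatives were a filter at a mean of 5 TPM or none, a pseudocount of 0.1, rescaling by the median of ratios, quantile normalization, the replicate number as a block, leaving out each library and fitting the compared libraries alone. Counts between lines were also made without genes that reached 1 TPM in 1 line only, a count added after seeing the data. KPNA2P2 left out (0.28% to 5.61% of TPM) and a block within each line were added after seeing the data.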

Additional observations from a re-analysis of the deposited data

How the results depend on the processing

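Of the 25 tested genes, the number that changed on DLL4 in TKO cells was 3 and became 5 with the filter at a mean of 5 TPM, 5 after rescaling by the median of ratios, 1 with the compared libraries fitted alone and 5 with KPNA2P2 left out. In NKO cells it was 1 and became 2 after quantile normalization, and in NT cells it was 5 and became 3 with no filter and 7 with the compared libraries fitted alone, which added CXCL1, CXCL8 and PTX3 and ended TNIP1. That fit gave 15 in place of 11 for TKO against NT on DLL4. The number that differed between TKO and NT on IgG was 14 and became 9 with the filter at a mean of 5 TPM. With 1 library left out at a time, the numbers ranged from 1 to 5, 1 to 2 and 3 to 6 for DLL4 against IgG in TKO, NKO and NT cells. They ranged from 7 to 11 and 8 to 14 for TKO against NT on DLL4 and IgG, 4 to 11 and 4 to 7 for NKO against NT, and 10 to 17 and 9 to 12 for TKO against NKO. They stayed at 0 for both differences of responses. The numbers between lines include CXCL6, CD40 and IL7R, whose calls are no test, and no range was made without them. With the replicate number as a block, the number was 6 for DLL4 in TKO cells, 7 in place of 11 for NKO against NT on DLL4, and 1 in place of 0 for each difference of responses. With the block within each line it was 5 for DLL4 in TKO cells and 1 for each difference of responses (PTX3 for TKO minus NT and CXCL8 for NKO minus NT). Same-numbered libraries on the 2 coatings deviated together with r = 0.016 in TKO, 0.279 in NKO and 0 in NT cells. The main fit did not take the numbers as pairs in any line, also not in NKO cells, where r was highest. Over all 77 calls of single genes and 1532 values under alternatives, 0 reversed and 171 were no longer called. A further 17 values could not be had because the gene was not tested under that filter or those libraries (CXCL6, CD40, IL7R, TNFAIP3 and TRAF1). Of the 77 calls, 37 were tested and held under every alternative run. Another 14 calls were not tested under some alternative and so were not counted as held. Among these are all 10 differences between lines of CXCL6, CD40 and IL7R, which are no test. Some of the 14 held wherever they were tested. With no filter the calls lost were those of CXCL2 on DLL4 in TKO cells, ICAM1 and TNIP1 on DLL4 in NT cells, CXCL8, IL7R, PTX3 and SOD2 in TKO against NT on DLL4, IL7R and TRAF1 in TKO against NT on IgG, ICAM1 and CXCL8 in NKO against NT on IgG, NFKB1 and TNFAIP8 in NKO against NT on DLL4, and CXCL8, ICAM1 and CD40 on DLL4 and TNFAIP2 and TRAF1 on IgG in TKO against NKO. With the compared libraries fitted alone, CXCL1 and CXCL2 on DLL4 in TKO cells and RELB in NKO against NT on IgG were among the calls lost. The block also called ICAM1 on DLL4, lower in TKO than in NT by -0.66 (limma adjusted p = 0.00543) and higher in NKO than in NT by 0.74 (limma adjusted p = 0.0143). It ended the calls of CCL2, CXCL3, IL7R, NFKB1, TNFAIP8 and TNIP1 in NKO against NT on DLL4. CCL2 on DLL4 in all lines, CXCL1 against NT in both lines and RELA in TKO are among the calls that held. No rescaling moved the median over all genes by more than 0.0628. Over all genes, fitting the compared libraries alone gave 53 in place of 104 calls for DLL4 in NKO cells and 1309 in place of 2612 for TKO against NKO on IgG. With 1 library left out at a time, the calls over all genes ranged from 307 to 1024, 37 to 116 and 960 to 2386 for DLL4 against IgG in TKO, NKO and NT cells, from 2298 to 3735 and 2430 to 3919 for TKO against NT on DLL4 and IgG, from 1434 to 2998 and 664 to 1589 for NKO against NT, and from 1669 to 3265 and 1816 to 2486 for TKO against NKO. The causes of these changes were not tested. With 2 libraries per group and unknown depth, values below about 1 TPM (CXCL6, CD40, IL7R) are the least certain.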

Other observations

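Genes of the AP-1 and immediate early list, which are induced with NF-kB targets in many cells, were counted on DLL4. Of 13 tested, 1 rose and 8 fell in TKO cells (7.69% and 61.5%, against 4.11% and 2.41% of all tested genes), 1 rose and 2 fell in NKO cells (7.69% and 15.4%, against 0.511% and 0.271%), and 1 rose and 5 fell in NT cells (7.69% and 38.5%, against 7.68% and 8.34%), with median changes of -0.44, -0.33 and -0.29. FOSL1, a subunit of AP-1, had 174 and 179 TPM on DLL4 against 324 and 298 TPM on IgG in TKO libraries, 123 and 93.9 against 185 and 156 TPM in NKO libraries, and 65.0 and 64.4 against 128 and 150 TPM in NT libraries. It fell by 0.81 ± 0.13 in TKO (SE, limma adjusted p = 0.00344), by 0.65 ± 0.13 in NKO (0.0461) and by 1.09 ± 0.13 in NT cells (0.000299). Against NT, 4 of the 13 were higher and 1 lower in TKO on DLL4, where 15.8% of genes that reached 1 TPM in more than 1 line were higher and 10% lower, 6 higher and 0 lower in TKO on IgG (6 and 0 at an unadjusted limma p below 0.05), where 14.9% and 12.2% were, and 2 higher and 4 lower in NKO on DLL4, where 11.6% and 8.93% were. In NKO on IgG 0 were higher and 1 lower (1 and 3 at an unadjusted limma p below 0.05), where 4.95% and 5.45% were.

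Of 18 tested interferon response genes, limma called 1 higher in TKO cells on DLL4 (IFI35, by 0.62), 0 in NKO cells (6 at an unadjusted p below 0.05) and 0 in NT cells (2 at an unadjusted p below 0.05). The shares of all tested genes that were called higher are 4.11% in TKO, 0.511% in NKO and 7.68% in NT cells. Against NT, 5 of the 17 that reached 1 TPM in more than 1 line were higher and 2 lower in TKO on DLL4 (29.4% and 11.8%), 2 higher and 2 lower in TKO on IgG (11.8% each), 4 higher and 1 lower in NKO on DLL4 (23.5% and 5.88%), and 2 higher and 2 lower in NKO on IgG (11.8% each), beside the shares over all genes given above. USP18, a brake on interferon signalling, was higher in TKO than in NT by 1.24 on DLL4 and 1.39 on IgG. Of 7 tested genes linked to endothelial quiescence, 1 was higher in TKO than in NT on either coating (14.3%). That is near the shares over all genes in more than 1 line, 15.8% on DLL4 and 14.9% on IgG. The median of the list in TKO was -0.09 on DLL4 and 0.26 on IgG. In NKO 3 were higher and 1 lower on DLL4 (42.9% and 14.3%, against 11.6% and 8.93%), and 2 were higher on IgG (28.6%, against 4.95%). KLF2, a flow-induced transcription factor that restrains inflammation, was higher than in NT by 1.10 in TKO and 0.57 in NKO on DLL4, and by 1.23 in TKO and 0.73 in NKO on IgG. Of 12 endothelial markers, 3 were higher and 3 lower than in NT on DLL4 in TKO and also in NKO (25% each way). The shares over all genes in more than 1 line were 15.8% and 10% in TKO and 11.6% and 8.93% in NKO. On IgG 4 were higher and 1 lower in TKO (33.3% and 8.33%, against 14.9% and 12.2%). In NKO 2 were higher and 1 lower on IgG (16.7% and 8.33%, against 4.95% and 5.45%). The sum of 8 epithelial markers was 913 to 1300 TPM in TKO, 906 to 1340 TPM in NKO and 724 to 864 TPM in NT libraries, most of it keratin 8, 18 and 19 transcripts, with KRT5 and KRT14 listed at 0 in all. The sum of 11 smooth muscle and fibroblast markers was 25.1 to 35.6 TPM in TKO, 12.4 to 17.4 TPM in NKO and 17.5 to 26.6 TPM in NT libraries.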
